A study of Rattus norvegicus with 4 samples.

Results

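The antioxidant enzymes described here are the superoxide dismutases Sod1, Sod2 and Sod3, catalase (Cat), the glutathione peroxidases Gpx1 and Gpx3, the kappa-class glutathione transferase Gstk1 and peroxiredoxin 1 (Prdx1). The genes were picked with earlier results of these data known, and their probe sets by gene symbol: all probe sets that the platform annotation assigns to 1 of these 8 genes were taken, which gave 17 of the 8799 probe sets, and all 8 of the 4736 singly annotated genes were on the array. RNA of the rat left ventricle was measured in 4 groups with 1 Affymetrix rat genome array each. The groups were terminal heart failure, whose label names no genotype; dTGR, double transgenic rats that overexpress human renin and human angiotensinogen; dTGR given losartan, which blocks the angiotensin II type 1 receptor; and a Sprague Dawley (SD) control. All 4 labels carry the same description of the transgenic rat, which becomes hypertensive with cardiac hypertrophy and proteinuria and dies after 7 weeks. The sources used here do not state the promoters that drive the transgenes, the dose and length of losartan treatment, the ages, or how many rats contributed to an array.

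Superoxide dismutases turn superoxide, which leaks from the respiratory chain and is made by oxidases, into hydrogen peroxide. Catalase then breaks the peroxide down in peroxisomes, while glutathione peroxidases reduce it with glutathione and peroxiredoxins with thioredoxin. The heart has a high oxygen use and a low catalase content, and angiotensin II is known to raise superoxide production in cardiovascular tissue through NADPH oxidases.

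Values are linear intensities, scaled so that the arrays share a trimmed mean, and the 40th percentile of all values, 26.0, served as a floor below which a level was treated as not measured. With 1 array per group there is no error between animals, no test was possible, and the number of arrays limits the precision of every fold below. As a yardstick, log2 differences between terminal heart failure and SD control had an SD of 0.51 between probe sets of the same gene, over 791 genes, and the same SD was 0.52 to 0.60 in the other 5 comparisons. Among these enzymes alone it was wider with losartan: 1.31 against SD control, 1.15 against untreated dTGR and 0.81 for terminal heart failure against losartan (5 genes each). Without losartan it was 0.44 to 0.52 (6 genes each). "At least 2-fold" was used as the call, and the share of all probe sets past it is given beside the first count in each comparison. Levels are compared between arrays within a probe set, never between probe sets. The dTGR and SD control arrays came from 1 chip lot and the terminal and losartan arrays from another, only the terminal array was run on another day, and the fluidics protocol of the dTGR array differed from that of the others. Every comparison with the terminal array thus lies across run days. Those with SD control and dTGR also lie across chip lots, and that with dTGR across fluidics protocols as well. None of these can be told apart from the condition. The ratio of 3' to 5' Gapdh signal was 1.28 for terminal, 1.73 for dTGR, 2.17 for losartan and 1.34 for SD control. All 9 cardiomyocyte markers on the array lay above the floor on all 4 arrays.

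In terminal heart failure the enzymes parted by gene. Extracellular superoxide dismutase, catalase and Gstk1 were lower than in SD control on every probe set above the floor, by 1.74-fold to 6.12-fold. The cytosolic and mitochondrial dismutases, Gpx1, Gpx3 and Prdx1 differed from SD control by at most 1.52-fold in either direction. In dTGR no enzyme reached a 2-fold difference from SD control, where 7.98% of all probe sets were at least 2-fold higher and 6.14% lower. After losartan Prdx1 was the only enzyme at least 2-fold higher than in untreated dTGR, 1 of 16 probe sets against 5.79% of all. In that comparison 3 of the 16 were at least 2-fold lower, against 10.4% of all.

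**Figure D1:**
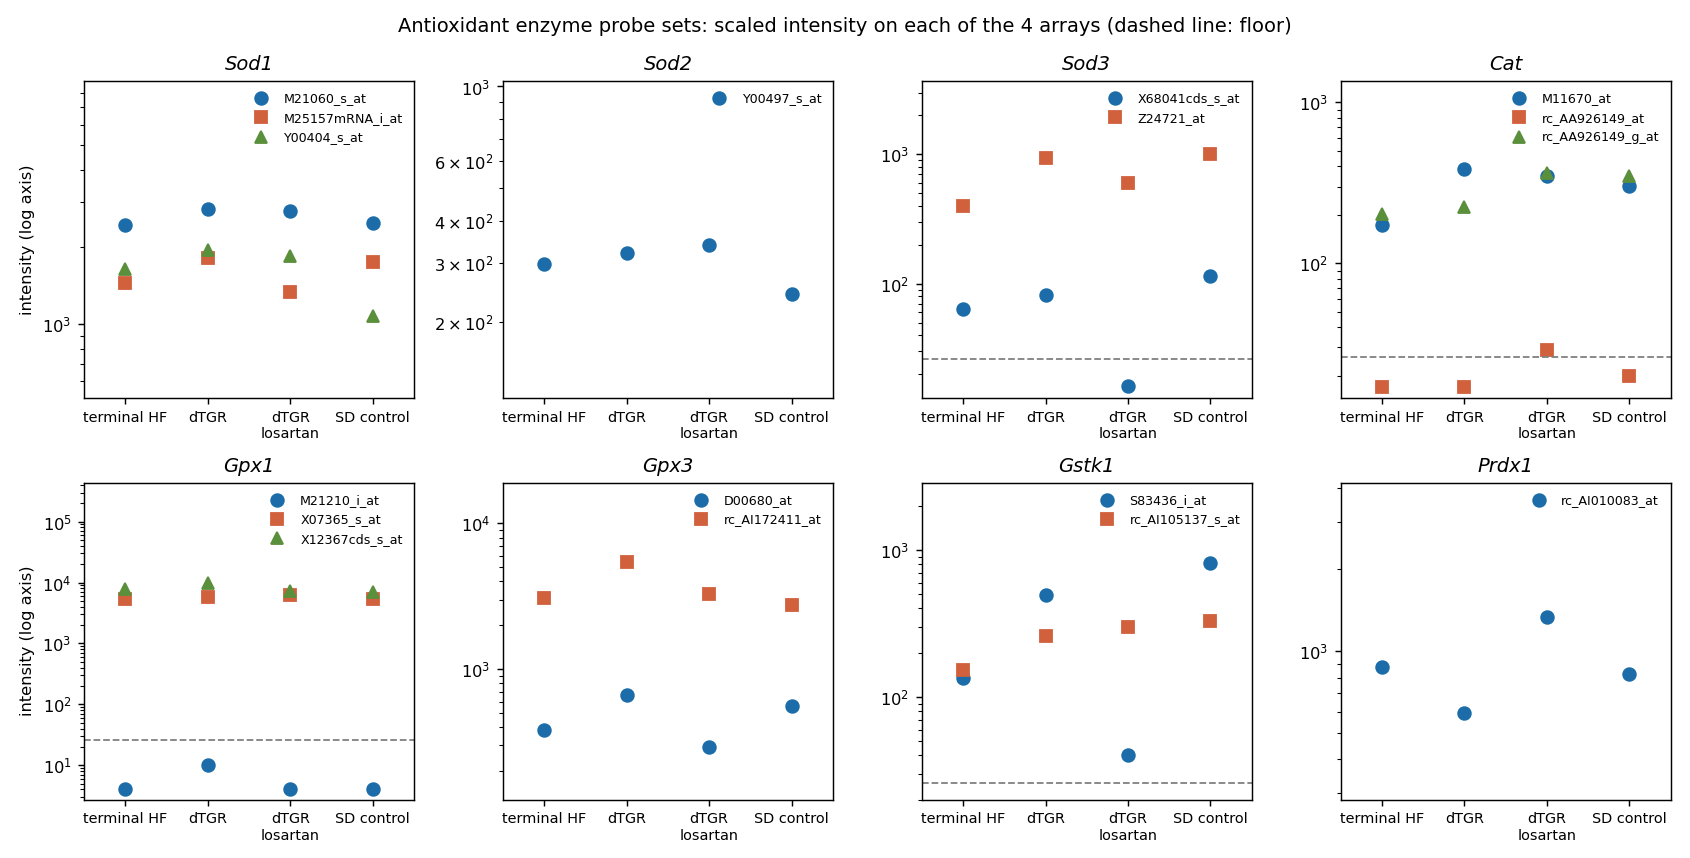
Scaled intensity (vertical log axis) of each antioxidant enzyme probe set on the 4 arrays, 1 panel per gene and 1 symbol per probe set, with the floor of 26.0 dashed where it is in range. Z24721_at of Sod3 and both Cat probe sets that lie above the floor throughout have their lowest point on the terminal array in the scaling shown, at 400, 173 and 201.

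Prdx1 was highest after losartan and Gstk1 highest in SD control. The 250 bases before their start sites are shown because Prdx1 is known in mouse cells as a target of NRF2, the transcription factor of the oxidative stress response, and Gstk1 serves as the comparison. Both sequences are from RefSeq, build GRCr8, plus strand, 5′ to 3′. Prdx1 is at chr5:135383656-135383905 and Gstk1 at chr4:72085364-72085613. Capitals mark TGACNNNGC, the core of the antioxidant response element, and TGANTCA, a loose form of the AP-1 motif with any base at N. Both were searched on both strands.
Prdx1: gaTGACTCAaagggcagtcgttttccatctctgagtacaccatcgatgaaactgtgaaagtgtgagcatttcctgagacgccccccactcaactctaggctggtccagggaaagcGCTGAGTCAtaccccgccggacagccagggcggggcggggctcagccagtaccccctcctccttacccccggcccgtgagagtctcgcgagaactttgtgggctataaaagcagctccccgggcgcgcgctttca
Gstk1: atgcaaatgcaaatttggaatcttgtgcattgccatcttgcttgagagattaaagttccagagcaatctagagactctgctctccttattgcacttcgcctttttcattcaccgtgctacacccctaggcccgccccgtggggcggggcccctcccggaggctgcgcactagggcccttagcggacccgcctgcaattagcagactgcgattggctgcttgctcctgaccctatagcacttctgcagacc
Prdx1 held TGACNNNGC on the opposite strand at bases -135 to -127 from the start site, overlapped by a TGANTCA match at -133 to -127, and a further TGANTCA match at -248 to -242. Gstk1 held neither. Promoter entries matched 7 of the 8 genes, all but Sod3. TGACNNNGC was found in 2 of the 7, Prdx1 and Sod2 (bases -35 to -27, opposite strand), and TGANTCA in Prdx1 alone. Over 33469 rat promoters of the same length, 10.1% held TGACNNNGC and 6.34% held TGANTCA. These matches describe letters in a window and not binding.

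Sod3, the extracellular dismutase that is anchored to matrix and vessel wall, had 2 probe sets. Z24721_at read 400 in terminal heart failure, 931 in dTGR, 599 after losartan and 1001 in SD control. X68041cds_s_at read 63.3 in terminal heart failure, 81.7 in dTGR, 16.0 (under the floor) after losartan and 115 in SD control. The SD control array was thus the highest on both probe sets and the terminal array was lower than dTGR and SD control on both. On Z24721_at the lead of SD control over dTGR depended on the processing. There the log2 difference of dTGR from SD control ranged from -0.34 to 0.06 over the alternatives. Against SD control, terminal heart failure was 2.50-fold lower on Z24721_at and 1.82-fold lower on X68041cds_s_at. Losartan-treated dTGR was 1.67-fold lower than SD control on the first and at least 4.42-fold lower on the second. The probe sets disagreed on terminal heart failure against losartan: Z24721_at was 1.50-fold lower and X68041cds_s_at at least 2.43-fold higher.

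Sod1, the copper and zinc enzyme of the cytosol, was bright on all 4 arrays. M21060_s_at read 2428 in terminal heart failure, 2818 in dTGR, 2755 after losartan and 2477 in SD control, a range of 1.16-fold. M25157mRNA_i_at read 1451 in terminal heart failure, 1808 in dTGR, 1336 after losartan and 1752 in SD control. Y00404_s_at alone put SD control apart, with 1641 in terminal heart failure, 1948 in dTGR and 1843 after losartan, against 1080 in SD control. On that probe set terminal heart failure was 1.52-fold, dTGR 1.80-fold and losartan-treated dTGR 1.71-fold above SD control, and the other probe sets of the gene, with log2 differences from -0.39 to 0.19 against SD control, did not share this. Sod2, the manganese enzyme of the mitochondrial matrix, had 1 probe set, which read 298 in terminal heart failure, 320 in dTGR, 340 after losartan and 243 in SD control. Terminal heart failure was 1.23-fold, dTGR 1.32-fold and losartan-treated dTGR 1.40-fold above SD control, all below the spread between probe sets of a gene.

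Catalase, which breaks down hydrogen peroxide in peroxisomes, was lowest in terminal heart failure on both probe sets above the floor throughout, except that with arrays scaled to the same median rc_AA926149_g_at was higher in terminal heart failure than in dTGR by 0.13 on the log2 scale. M11670_at read 173 in terminal heart failure, 387 in dTGR, 349 after losartan and 303 in SD control. The probe set rc_AA926149_g_at read 201 in terminal heart failure, 225 in dTGR, 363 after losartan and 349 in SD control. Against SD control the 2 probe sets gave almost the same difference for terminal heart failure, 1.75-fold and 1.74-fold lower. Against losartan-treated dTGR, from the same chip lot but run on another day, the 2 probe sets gave 2.01-fold and 1.80-fold lower values. They parted on the dTGR array, which was 1.28-fold above SD control on M11670_at and 1.56-fold below it on rc_AA926149_g_at. The third probe set of the gene, rc_AA926149_at, exceeded the floor on the losartan array alone, at 29.1, so that it entered the 3 comparisons with losartan alone, each time with a log2 difference of 0.16 in size and 1 side at the floor.

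Gpx1, the selenium-dependent glutathione peroxidase of cytosol and mitochondria, hardly varied on its measured probe sets. X07365_s_at read 5269 in terminal heart failure, 5820 in dTGR, 6217 after losartan and 5299 in SD control. X12367cds_s_at read 7942 in terminal heart failure, 9802 in dTGR, 7127 after losartan and 6870 in SD control, a range of 1.43-fold, and M21210_i_at lay under the floor on all 4. Gpx3, the secreted peroxidase of plasma, had its highest value in dTGR on both probe sets. The probe set rc_AI172411_at read 3092 in terminal heart failure, 5480 in dTGR, 3298 after losartan and 2746 in SD control. D00680_at read 381 in terminal heart failure, 664 in dTGR, 294 after losartan and 563 in SD control. In dTGR Gpx3 was 1.995-fold and 1.18-fold above SD control, though with arrays scaled to the same median the log2 difference of D00680_at was -0.0013. Losartan-treated dTGR was 1.66-fold and 2.26-fold below untreated dTGR, and terminal heart failure 1.77-fold and 1.74-fold below dTGR. Against SD control the 2 probe sets gave opposite signs both for terminal heart failure (log2 differences of 0.17 and -0.56) and for losartan (0.26 and -0.94).

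Gstk1, a glutathione transferase of mitochondria and peroxisomes, had the widest range of the 8 genes. S83436_i_at read 134 in terminal heart failure, 491 in dTGR, 40.2 after losartan and 822 in SD control. The probe set rc_AI105137_s_at read 153 in terminal heart failure, 262 in dTGR, 301 after losartan and 331 in SD control. Both placed SD control highest and dTGR between terminal heart failure and SD control. Terminal heart failure was 6.12-fold and 2.17-fold below SD control, and 3.65-fold and 1.72-fold below dTGR. The losartan array separated them. S83436_i_at was 20.4-fold below SD control after losartan, the largest difference of any member, while rc_AI105137_s_at was 1.10-fold below. In the array maker's naming the suffix _i_at marks a probe set with fewer unique probes than the design required. The losartan array also had the highest ratio of 3' to 5' Gapdh signal, 2.17, and what part this had in the low reading was not tested. Against untreated dTGR the losartan array was lower on S83436_i_at and higher on rc_AI105137_s_at, so these values give no direction for Gstk1 in that comparison.

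Prdx1, a peroxiredoxin that takes electrons from thioredoxin, had 1 probe set. It read 874 in terminal heart failure, 592 in dTGR, 1334 after losartan and 826 in SD control. The losartan array was the highest and the dTGR array the lowest. Losartan-treated dTGR was 2.25-fold above untreated dTGR and 1.62-fold above SD control, dTGR was 1.39-fold below SD control, and terminal heart failure was 1.06-fold above SD control. The comparison of losartan with dTGR lies across chip lots and fluidics protocols, which cannot be told apart from the treatment.

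Counted over probe sets, 3 of the 15 measured in terminal heart failure or SD control were at least 2-fold lower in terminal heart failure (Z24721_at of Sod3 and both of Gstk1) and 0 were higher, where 8.58% of all 4685 measured probe sets were lower and 7.36% higher. The median log2 difference of the 15 was -0.27, against -0.11 over all. Beyond the spread of 0.51 lay 8 of the 15, 7 lower and 1 higher, against 42.1% of all probe sets above the floor on both arrays. In dTGR against SD control 0 of 15 were 2-fold higher and 0 lower, where the shares of all probe sets were 7.98% and 6.14%. The median was 0.14, against 0.05 over all, and 9 of 15 differences were positive, but only 5 of 15 with arrays scaled to the same median. Losartan-treated dTGR against SD control had 0 of 16 higher and 2 lower (X68041cds_s_at of Sod3 and S83436_i_at of Gstk1), where 2.73% and 6.15% of all probe sets were called. The median was 0.10, against -0.02 over all. The 3 comparisons share the SD control array.

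**Figure D2:**
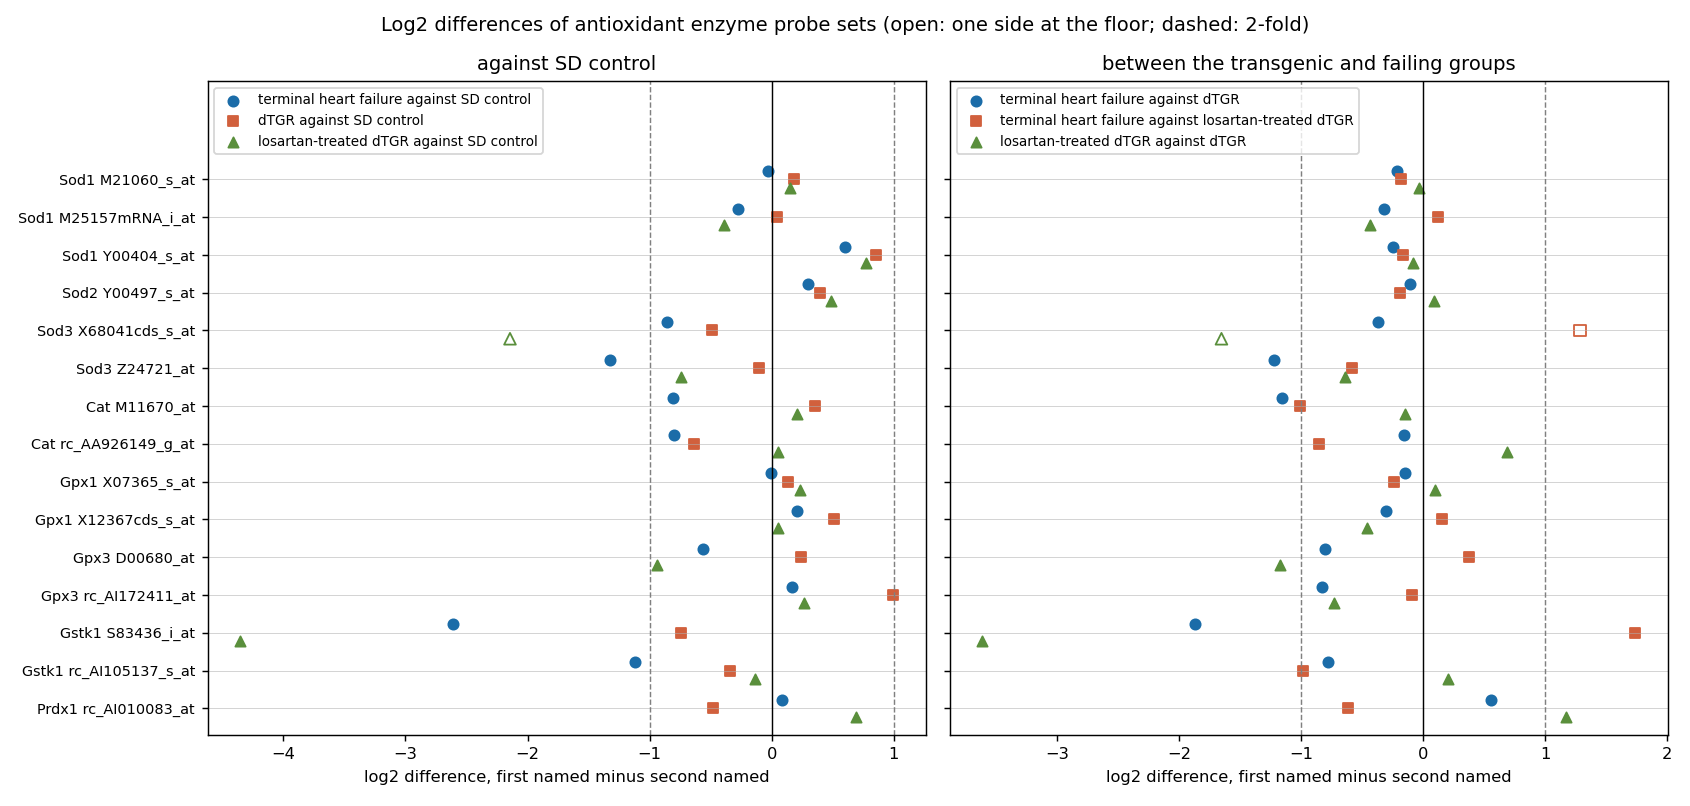
Log2 differences (horizontal axis) of the 15 antioxidant enzyme probe sets above the floor on at least 3 arrays, against SD control on the left and between the other groups on the right. Open symbols have 1 side at the floor and dashed lines mark 2-fold; the widest point is S83436_i_at of Gstk1 after losartan, at -4.35.

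Against dTGR, terminal heart failure had 3 of 15 probe sets at least 2-fold lower (Z24721_at of Sod3, M11670_at of Cat and S83436_i_at of Gstk1) and 0 higher, where 11.3% of all probe sets were lower and 8.28% higher. With arrays scaled to the same median only S83436_i_at remained past 2-fold, Z24721_at reading -0.93 and M11670_at -0.87 on the log2 scale. All but Prdx1 had negative differences, 14 of 15, against 59.2% of all probe sets. The count of signs also depends on how the dTGR array is scaled: with arrays scaled to the same median 9 of 15 were negative, against 44.7% of all, and the median over all probe sets changed from -0.16 to 0.10. Against losartan-treated dTGR, from the same chip lot, terminal heart failure had 1 of 16 lower (M11670_at of Cat) and 2 higher (S83436_i_at of Gstk1 and X68041cds_s_at of Sod3, the value for Sod3 being a bound), where 6.8% and 8.94% of all were called. The call for M11670_at, at a log2 difference of -1.01, was lost with arrays scaled to the same median (-0.96) and with cyclic loess (-0.97). Counting only probe sets above the floor on both arrays, 5 genes had more than 1 in this comparison. Cat was the only one of the 5 whose probe sets all had the same sign. Losartan-treated against untreated dTGR gave 1 of 16 higher (Prdx1) and 3 lower (X68041cds_s_at of Sod3, D00680_at of Gpx3 and S83436_i_at of Gstk1), where 5.79% of all were higher and 10.4% lower.

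**Figure D3:**
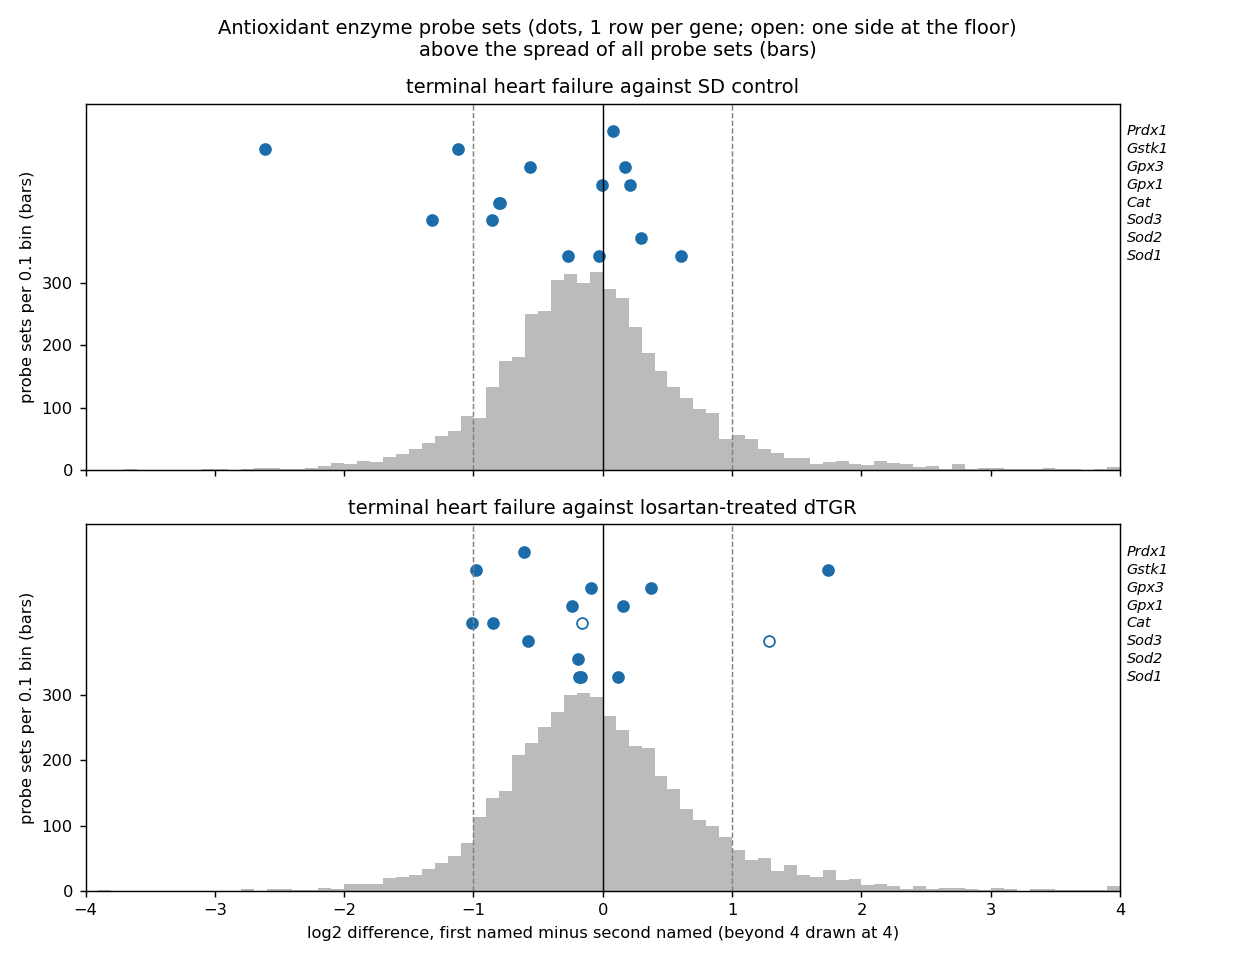
Log2 differences (horizontal axis) of the antioxidant enzyme probe sets as dots, 1 row per gene, above the histogram of all measured probe sets, for terminal heart failure against SD control (top) and against losartan-treated dTGR (bottom). The dots of Cat, Sod3 and Gstk1 lie between -2.61 and -0.80 in the top panel, whereas in the bottom panel Sod3 and Gstk1 have dots on both sides of 0.

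Across the 4 arrays, 14 of the 17 probe sets were above the floor throughout. None of the 14 was highest on the terminal array (1 with quantile normalization or cyclic loess), which held the highest value for 22.2% of all 3462 such probe sets, and 6 were lowest there (3 with arrays scaled to the same median), against 36.0% of all. The dTGR array was highest for 7 of the 14, against 27.6% of all, but for 2 of 14, against 14.6%, with arrays scaled to the same median. Their median range from lowest to highest array was 1.90-fold, close to 1.79-fold over all, and 6 of 14 spanned at least 2-fold, against 36.5%. The spans of the enzymes were thus close to those of other probe sets on these arrays.

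Other redox genes on the array were counted with 1 probe set per gene, the one with the highest mean. Over all probe sets 7.36% were at least 2-fold higher and 8.58% lower in terminal heart failure than in SD control, with a median log2 difference of -0.11, and each list count below is to be read against these values. In the glutathione system, terminal heart failure had 1 of 17 measured genes at least 2-fold above SD control and 1 as far below it (median log2 difference 0.12). Mgst1, a membrane-bound glutathione transferase, read 1318 in terminal heart failure and 372 in SD control, 3.55-fold higher, and Gstm7, a mu-class transferase, read 133 in terminal heart failure and 488 in SD control, 3.66-fold lower. Of 8 thioredoxin system genes 1 was higher and 0 lower (median -0.06): Txnrd1, which reduces thioredoxin, read 1342 in terminal heart failure against 446 in SD control, 3.01-fold higher, with a log2 difference of 2.23 on its other probe set. Among 7 genes of NRF2 and its targets 1 was higher and 0 lower (median -0.07). This was Hmox1, heme oxygenase 1, at 1079 in terminal heart failure against 233 in SD control, with a log2 difference of 2.30 on its other probe set. Nfe2l2, which encodes NRF2 itself, read 63.1 in terminal heart failure and 71.5 in SD control.

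Of 6 measured oxidant sources, terminal heart failure had 2 higher and 1 lower than SD control (median 0.23). Xdh, whose product xanthine oxidase makes superoxide, read 829 in terminal heart failure and 242 in SD control, 3.43-fold higher, and Maoa, a monoamine oxidase that makes hydrogen peroxide, read 1095 in terminal heart failure and 489 in SD control, 2.24-fold higher. Maob, a related oxidase, read 22.1 in terminal heart failure and 67.0 in SD control and was at least 2.58-fold lower. Cyba, a membrane subunit of NADPH oxidase, read 402 in terminal heart failure and 376 in SD control, and Nox4, a catalytic subunit, lay under the floor on all 4 arrays. Of 11 peroxisome genes 0 were higher and 1 was lower (median -0.41). Pex5, the import receptor that brings catalase into peroxisomes, read 44.4 in terminal heart failure and 113 in SD control, 2.53-fold lower. Probe sets that were not the brightest of their gene would have changed some of these counts: between terminal heart failure and SD control the log2 difference was up to 1.53 for Gsta1, -1.13 for Gsta4, 1.40 for Txnip, down to -1.64 for Nos2, up to 1.18 for Nos3 and 1.18 for Pex14, while the probe sets counted for these genes were within 2-fold. Of 3 copper-handling genes on the array 1 was measured, Cp, which encodes ceruloplasmin, at 45.6 in terminal heart failure and 39.0 in SD control. Against SD control, dTGR was also at least 2-fold higher for Hmox1 (2.88-fold) and Maoa (2.68-fold). It was lower for Maob (at least 2.58-fold) and Pex5 (2.03-fold). Mgst1, Txnrd1, Xdh and Gstm7 were within 2-fold there. Abcd3 of the peroxisome list was 8.15-fold above SD control after losartan (1836 against 225). Against dTGR its log2 difference was 2.88, but -0.69 on its other probe set. Further list genes past 2-fold only in other comparisons are not named.

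**Figure D4:**
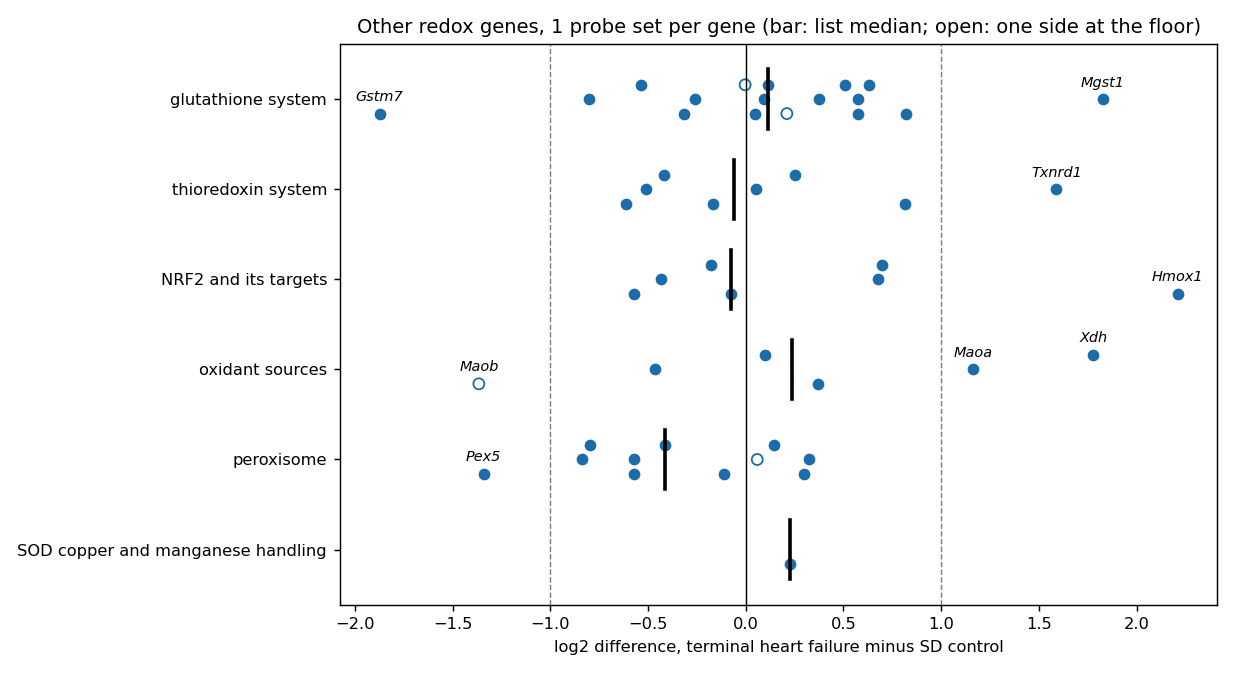
Log2 differences between terminal heart failure and SD control (horizontal axis) for 6 lists of other redox genes, 1 dot per gene and a black bar at the list median, with genes past 2-fold named. Mgst1, Txnrd1, Hmox1, Xdh and Maoa lie right of the 2-fold line and Gstm7, Maob and Pex5 left of it.

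In a bulk sample, fewer cells of a type and less RNA per cell cannot be told apart. Summed intensities of cell type markers moved between arrays as well. Smooth muscle markers (5 of 5 above the floor on the terminal array) summed to 8310 in terminal heart failure, 9473 in dTGR, 5073 after losartan and 7171 in SD control. Most of this sum is Des, at 6886 in terminal heart failure, 8375 in dTGR, 3953 after losartan and 5576 in SD control. Tagln and Cnn1 were also highest in dTGR, with Cnn1 under the floor after losartan. Acta2 and Myh11 were instead lowest in dTGR, Myh11 by 2.43-fold against SD control. Fibroblast markers (7 of 7) summed to 14749 in terminal heart failure, 13414 in dTGR, 15293 after losartan and 15375 in SD control. The sum is mostly Dcn, at 11486 in terminal heart failure and 7671 in SD control. Of the 7 fibroblast markers 3 were at least 2-fold lower in terminal heart failure than in SD control (Col3a1 4.02-fold, Lum 3.18-fold and Col1a1 2.15-fold) and 1, Postn, at least 2-fold higher, with a median log2 difference of -0.42. Erythroid markers (3 of 3) summed to 21355 in terminal heart failure, 27070 in dTGR, 18854 after losartan and 15456 in SD control, with both globin probe sets highest in dTGR and Alas2 highest in terminal heart failure, at 856 against 604 in dTGR. Macrophage markers (4 of 5, with Csf1r under the floor on all 4 arrays) summed to 4051 in terminal heart failure, 2057 in dTGR, 1400 after losartan and 1272 in SD control, and were thus highest in terminal heart failure. Endothelial markers (4 of 5, with Vwf above the floor on the dTGR array alone) summed to 477 in terminal heart failure, 546 in dTGR, 465 after losartan and 372 in SD control, but they did not move together: against SD control, Kdr was 2.03-fold lower and Pecam1 1.76-fold higher in terminal heart failure. Cardiomyocyte markers summed to 88835 in terminal heart failure, 187344 in dTGR, 127299 after losartan and 97552 in SD control. Their median log2 difference between dTGR and SD control was 0.90, but not all rose. Against SD control, Pln was 1.14-fold lower in dTGR and Ryr2 1.03-fold higher. The markers were also counted with 1 probe set per gene. In terminal heart failure against SD control, the counted Myh6 probe set had a log2 difference of -0.27, but its 2 others -1.27 and -1.25. Other probe sets of Tnni3 (-0.32) and Myl2 (-0.06 to 0.04) were within 2-fold. The dTGR array also had the highest deposited maximum, 49747, against 20728 for terminal, 28463 for losartan and 22575 for SD control. Its instrument record gives 0 wash A1 cycles, 0 wash B cycles and 0 seconds of first stain, against 10, 4 and 600 for the others. What part this had in the marker sums was not tested. The part of the marker shifts in the enzyme values was not tested either.

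For each enzyme whose brightest probe set spanned at least 2-fold, the 3 probe sets with the nearest pattern over the 4 arrays were taken, by Euclidean distance of centred log2 values, among 3460 or 3461 candidates. Nearest to M11670_at of Cat was Ate1, an arginyl transferase, at 0.03, followed by Mrps31 and Ndufaf3, proteins of the mitochondrial ribosome and of complex I assembly, at 0.05 and 0.09. Nearest to Z24721_at of Sod3 were Ptgr3, Plk1 and Cx3cl1, at 0.13, 0.13 and 0.15. Prdx1 was nearest to Rab6a, Aifm1 and Cnbp, at 0.08, 0.10 and 0.12. No probe set came close to S83436_i_at of Gstk1: its nearest, Emp1, Med25 and Nfix, were at 1.61, 1.70 and 1.72. Each pattern rests on 4 arrays, so these distances are a description of these arrays alone.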

How the data were processed

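The deposited table gives 1 linear intensity per probe set and array. Software and settings behind these values are not stated by the labels or file headers. The deposited intensities already shared a trimmed mean of 200.2 to 200.3. Each array was multiplied so that its mean, with 2% left out at each end, equalled the average over the 4 arrays. Intensities below 26.0, the 40th percentile over all arrays, were raised to this floor before taking log2. Of 8799 probe sets 7006 had 1 gene symbol, while 59 controls, 1426 unnamed and 308 multiply named ones were not used. The identifiers of all 8 genes matched the rat gene table. A probe set entered a comparison when it was above the floor on either array, and where 1 array was below the floor its fold is given as "at least". Deposited values under 32 mostly have the decimals of a date, all 9 such values of these enzymes included, which moves them by less than 1 unit. Instrument records, deposited as settings with no score or other unit, gave chip lot, run day and fluidics. Members, lists, the naming rule (all member probe sets, and list genes past 2-fold) and alternatives were chosen with earlier results of these data known. The calling step was tested on simulated data, with changes well past 2-fold planted in bright probe sets. The simulated noise was far below the spread between probe sets of a gene. That test checks the computation and cannot show how reliable a 2-fold difference is on these arrays. Python 3.11.15, pandas 2.3.3, numpy 2.4.6 and statsmodels 0.14.6 were used.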

Additional observations from a re-analysis of the deposited data

How the results depend on the processing

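Alternatives were floors at the 25th and 60th percentile or none above 1 unit, scaling to the same median, quantile normalization, cyclic loess, no scaling, 1 probe set per gene and, chosen after seeing the data, leaving out probe sets marked _i_at. Of 108 counts of called probe sets 97 stayed within 1.5 times of the reported one, 20 of 714 single log2 differences moved by more than the spread between probe sets of a gene, and 0 of those called changed sign. The counts that moved were these. With the floor at the 60th percentile, losartan against SD control had 1 lower and terminal against losartan 1 higher. With no floor, dTGR against SD control had 1 higher, M21210_i_at of Gpx1. Scaling to the same median left 1 lower in terminal against dTGR and 0 lower in terminal against losartan, where cyclic loess also left 0. With 1 probe set per gene, losartan against SD control had 1 lower, terminal against losartan 1 higher and losartan against dTGR 1 lower. Without _i_at probe sets, losartan against SD control had 1 lower and terminal against losartan 1 higher. Over all alternatives the terminal log2 difference from SD control ranged from -0.80 to -0.69 for M11670_at of Cat, from -1.32 to -1.22 for Z24721_at of Sod3 and from -1.12 to -0.9995 (cyclic loess, just short of 2-fold) for rc_AI105137_s_at of Gstk1, and Prdx1 after losartan from 1.04 to 1.41 over dTGR. Scaling to the same median turned the split over all probe sets to 656 higher and 298 lower in terminal against dTGR, where the reported scaling gave 417 and 568, to 237 and 530 in dTGR against SD control (400 and 308), and to 458 and 335 in losartan against dTGR (293 and 528). Quantile normalization gave 504 and 433 in terminal against dTGR and 383 and 436 in losartan against dTGR, and cyclic loess 548 and 364 in terminal against dTGR and 281 and 327 in dTGR against SD control. The floor set these totals too: terminal against SD control had 345 higher and 402 lower as reported, 582 and 656 with the floor at the 25th percentile, 217 and 205 at the 60th and 1022 and 1040 with none. The larger side turned at the 60th percentile, and also with cyclic loess (407 and 319), quantile normalization (367 and 339) and scaling to the same median (377 and 374). In dTGR against SD control it also turned with quantile normalization (314 and 352) and with the floor at the 60th percentile (86 and 117). That floor turned it in terminal against dTGR too (213 and 182). Having no floor turned it in terminal against losartan (1024 and 1089, where 422 and 321 were reported). For terminal against SD control, the median ranged from 0.12 to 0.44 in the glutathione list, -0.11 to -0.01 in the thioredoxin list, -0.07 to 0.30 in the NRF2 list, 0.05 to 0.37 in the oxidant sources and -0.49 to -0.09 in the peroxisome list. Pex5 and Maob kept their calls in 7 of 8 settings. No paired analysis was possible because each group has 1 array, and for the same reason no array could be left out. Values near the floor, such as those of X68041cds_s_at, limit what can be said of Sod3 after losartan.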
